A study of Mus musculus with 6 samples.

Results

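The 10 genes described here encode chains of collagens I, III, V, VI, XII and XIV: Col1a1, Col1a2, Col3a1, Col5a1, Col5a2, Col6a1, Col6a2, Col6a3, Col12a1 and Col14a1. They were taken by gene symbol from the 47480 rows of the expression table, where each had 1 row, and all 10 were among the 11595 genes expressed highly enough to be tested. The study used RNA sequencing to compare primary chondrocytes, the cell type of cartilage, isolated from neonatal mice of 2 genotypes, with the stated purpose of characterizing drivers of osteoarthritis. A2ARKO mice are knockouts of Adora2a, which encodes a G protein-coupled receptor for adenosine. WT mice carry the receptor. Both genotypes are labelled C57BL/6 and were housed in 1 facility with the same diet. Each genotype had 3 libraries, each made from the trypsinized cells of an entire pooled litter, so a replicate is a litter pool and p-values measure the spread between pools. The labels give no treatment, no time in culture and no description of the deleted allele. Values are FPKM (fragments per kilobase and per M fragments, M for mega), given for replicates 1, 2 and 3 in that order. Adora2a itself was at 9.36, 7.31 and 3.46 FPKM in WT and at 0.41, 0.54 and 0.66 FPKM in A2ARKO, low in every knockout library (log2 difference -2.25, limma adjusted p = 0.0203). This call was lost without WT replicate 2 (0.0582) and without A2ARKO replicate 1, 2 or 3 (0.0824, 0.0955 and 0.0864), and with no filter on low values (0.0533). No source used here gives the deleted part of the gene, so whether the remaining reads lie outside it was not tested.

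Collagens I, III and V form the banded fibrils of skin, tendon, bone and other connective tissues. Types I and III make up most of such a fibril, and type V is built into it and limits its thickness. Collagen VI forms beaded microfilaments around cells, including the pericellular matrix of chondrocytes. Collagens XII and XIV are fibril-associated collagens that sit on the fibril surface. Cartilage fibrils are instead built from collagens II, IX and XI. Chondrocytes grown as a monolayer are known to lose collagen II and to gain collagen I and other connective tissue collagens, a change called dedifferentiation.

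WT replicate 1 stood apart from the other libraries by its cartilage markers and WT replicate 2 by its leukocyte and muscle markers, as given with the marker values. Of the 10 genes, 1 was called, Col6a3, which fell in A2ARKO chondrocytes, and none was called higher. Calls were made with limma on log2(FPKM + 1) at a Benjamini-Hochberg adjusted p below 0.05 over all genes tested, and 1.77% of tested genes were called lower and 3.31% higher. The 2 collagen I chains, Col3a1 and the 2 collagen V chains were lower in every A2ARKO library than in any WT library but did not pass. Together with Col6a3 these made 6 of 10 genes lower without overlap between genotypes, against 14.9% of tested genes. The same 6, and no other of the 10, had an unadjusted p below 0.05, against 10.4% of tested genes with such a p and a lower level in A2ARKO and 24.7% in either direction. The other 4 genes, Col6a1, Col6a2, Col12a1 and Col14a1, had overlapping groups. The median log2 difference, A2ARKO minus WT, was -0.77 over the 10 genes and 0.002 over all tested genes. In bulk RNA, fewer cells of a type and less RNA per cell cannot be told apart.

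**Figure D1:**
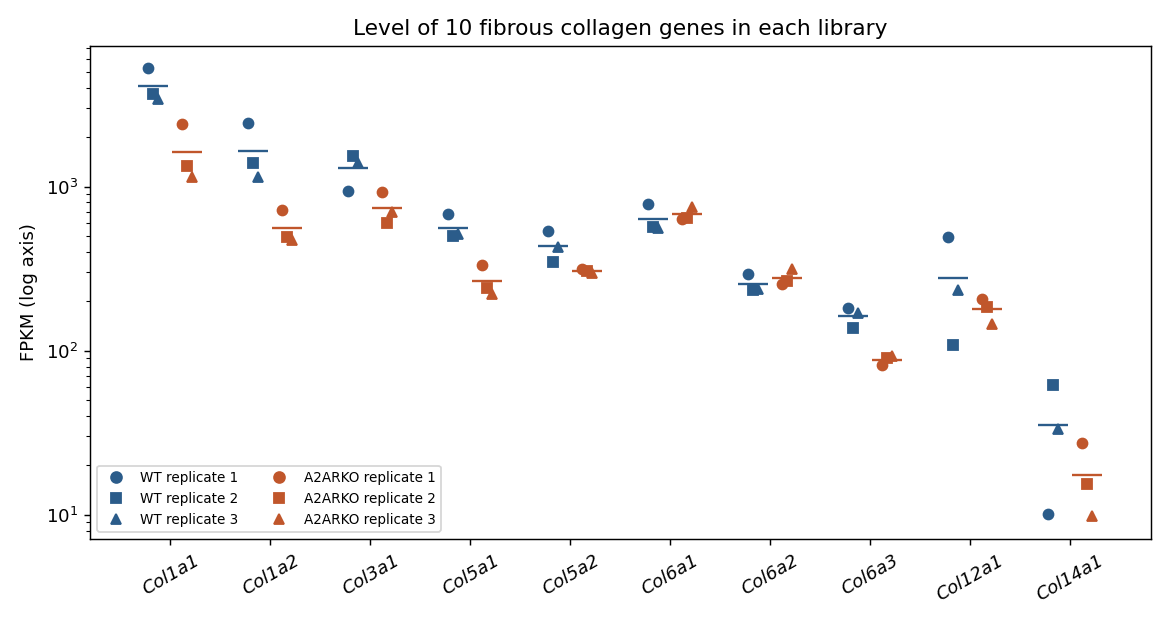
FPKM of the 10 collagen genes in each library on a log axis, with colour for genotype, shape for replicate and a line at each group's mean. The 6 genes lower without overlap were Col1a1, Col1a2, Col3a1, Col5a1, Col5a2 and Col6a3, while Col6a1 and Col6a2 overlapped.

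Col1a1 and Col1a2 encode the chains of collagen I, the main fibrillar collagen of bone, skin and tendon. Col1a1 (mm10 chromosome 11, 94936224 to 94953042, plus strand) was at 5256, 3672 and 3397 FPKM in WT and at 2393, 1337 and 1139 FPKM in A2ARKO. Every A2ARKO library was below every WT library. The mean was 4108 ± 1004 FPKM in WT and 1623 ± 674 FPKM in A2ARKO (SD, n = 3). The log2 difference was -1.39 with a standard error of 0.43, a 95% interval of -2.44 to -0.34 and a limma adjusted p of 0.121. Ranked by FPKM among all genes, Col1a1 was at positions 4, 2 and 1 in WT and at positions 4, 11 and 18 in A2ARKO. Col1a2 (chromosome 6, 4504814 to 4541544, plus strand) was at 2424, 1399 and 1147 FPKM in WT and at 716, 490 and 471 FPKM in A2ARKO. The groups did not overlap, and the log2 difference of -1.52 (standard error 0.36) had a limma adjusted p of 0.0694 and a 95% interval of -2.40 to -0.63. After quantile normalization Col1a2 passed at 0.0320.

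Col3a1 encodes the single chain type of collagen III, which forms fibrils with collagen I in extensible tissues. It lies on chromosome 1 (45311538 to 45349706, plus strand). The WT libraries were at 945, 1543 and 1397 FPKM and the A2ARKO libraries at 933, 600 and 696 FPKM. WT replicate 1 and A2ARKO replicate 1 were nearly level, so the groups were separated by a narrow margin. The log2 difference was -0.79 with a standard error of 0.31 and a 95% interval of -1.54 to -0.05 (limma adjusted p = 0.181).

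Col5a1 and Col5a2 encode collagen V chains, which help to start and size collagen I fibrils. Col5a1 (chromosome 2, 27886425 to 28039514, plus strand) was at 676, 498 and 511 FPKM in WT and at 331, 242 and 222 FPKM in A2ARKO. The highest A2ARKO library was well below the lowest WT library. The log2 difference was -1.09 with a standard error of 0.23, a 95% interval of -1.64 to -0.53 and a limma adjusted p of 0.0533, just above the threshold. It passed when genes under 5 FPKM were dropped (0.0451), after quantile normalization (0.0390) and without an intensity trend in the variance (0.0388). Col5a2 (chromosome 1, 45374321 to 45503282, minus strand) was at 537, 347 and 428 FPKM in WT. In A2ARKO it was at 313, 307 and 299 FPKM, a narrow band below all 3 WT libraries. Its log2 difference was -0.49 (standard error 0.20, limma adjusted p = 0.202). Col5a2 and Col3a1 are neighbours, 24.6 kb apart on chromosome 1.

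Col6a1, Col6a2 and Col6a3 encode the chains that assemble into collagen VI. Col6a3 (chromosome 1, 90765923 to 90843971, minus strand) was at 183, 137 and 169 FPKM in WT and at 81.7, 90.1 and 92.4 FPKM in A2ARKO. All A2ARKO libraries were below all WT libraries, and the A2ARKO pools differed little among themselves. Its level fell from 163 ± 23.4 to 88.1 ± 5.63 FPKM (SD, n = 3), a ratio of 0.541. The log2 difference was -0.87 (standard error 0.14, 95% interval -1.22 to -0.52, limma adjusted p = 0.0313). The call was kept without WT replicate 1 or 2 (0.0367 and 0.0315). It was lost without WT replicate 3 (0.0514), without A2ARKO replicate 1, 2 or 3 (0.114, 0.148 and 0.126) and with no filter on low values (0.0722). In the 6 fits that leave out 1 library, the log2 difference ranged from -0.99 to -0.78.

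The other collagen VI chains had overlapping groups. Col6a1 (chromosome 10, 76708792 to 76726168, minus strand) was at 783, 569 and 557 FPKM in WT and at 631, 647 and 756 FPKM in A2ARKO. The A2ARKO libraries lay within the range of the WT libraries. Col6a1 had a log2 difference of 0.11 with a 95% interval of -0.44 to 0.65 (limma adjusted p = 0.815), and it turned to -0.01 after rescaling libraries to the same sum and to -0.16 after quantile normalization. Col6a2 (chromosome 10, 76595762 to 76623630, minus strand) was at 295, 233 and 237 FPKM in WT and at 254, 266 and 314 FPKM in A2ARKO. Its log2 difference was 0.13 with a 95% interval of -0.28 to 0.54 (limma adjusted p = 0.687), and it turned to -0.05 after quantile normalization.

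Col12a1 encodes collagen XII, a fibril-associated collagen of dense connective tissue, and lies on chromosome 9 (79598991 to 79718831, minus strand). It was at 491, 109 and 236 FPKM in WT and at 207, 185 and 146 FPKM in A2ARKO. WT replicates 1 and 2 lay on opposite sides of all 3 A2ARKO libraries. Its log2 difference of -0.39 (standard error 0.53, limma adjusted p = 0.701) turned to 0.15 without WT replicate 1. Col14a1 encodes collagen XIV, which binds fibrils together with decorin, and lies on chromosome 15 (55307750 to 55520803, plus strand). It was the lowest of the 10 genes, at 10.04, 61.9 and 33.3 FPKM in WT and at 27.2, 15.4 and 9.76 FPKM in A2ARKO. Its groups overlapped, and the log2 difference was -0.75 (standard error 0.68, limma adjusted p = 0.548). Leaving out WT replicate 1 gave -1.44, and leaving out WT replicate 2 gave -0.19.

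**Figure D2:**
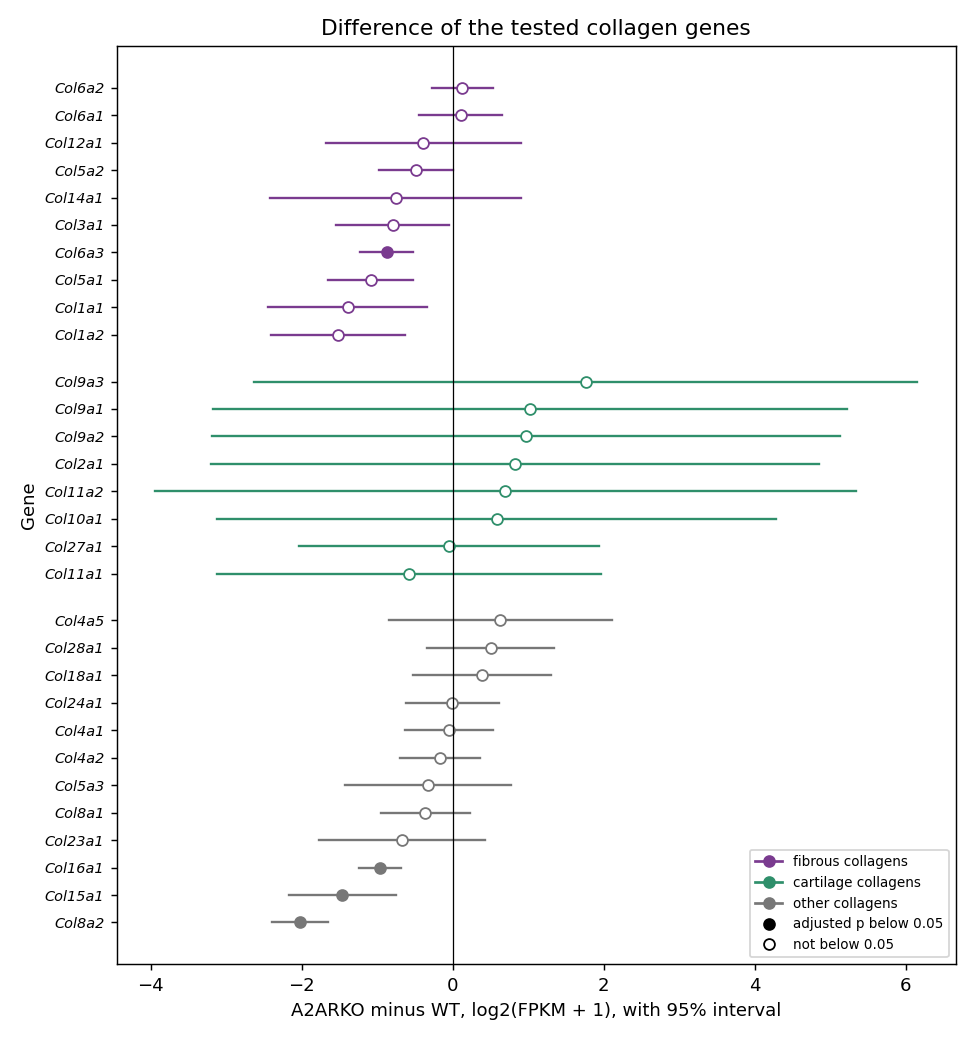
Log2 difference in log2(FPKM + 1), A2ARKO minus WT, for the 30 tested collagen genes, grouped as the 10 genes described here, cartilage collagens and other collagens, with 95% limma intervals and filled points for an adjusted p below 0.05. Of the 10, Col6a3, at -0.87, was the 1 gene called, and the intervals of Col1a1, Col1a2, Col3a1, Col5a1 and Col5a2 also lay below 0.

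Spread among the pools differed strongly between the genes. The SD of log2(FPKM + 1) in WT was 1.08 for Col12a1 and 1.27 for Col14a1, against a median of 0.19 over all tested genes. In A2ARKO these SDs were 0.25 and 0.70, against a median of 0.10. Col5a2 was the steadiest in A2ARKO, with an SD of 0.03, while Col1a1 had 0.56 there and 0.34 in WT. The lowest estimated read number behind any of their values was about 2930, for Col14a1 in WT replicate 1, where counting error is 1.85%. The other 9 genes had at least 50368 estimated reads in every library.

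The order of the mean levels differed between the genotypes as a description, but the orders in single libraries did not separate them. WT replicate 3 and A2ARKO replicate 1 had the same order of all 10 genes. Col1a2 was above Col3a1 in WT replicate 1 only. By mean FPKM, which is per gene length, WT chondrocytes ranked Col1a1, Col1a2, Col3a1, Col6a1, Col5a1, Col5a2, Col12a1, Col6a2, Col6a3 and Col14a1 from high to low. Neighbours with overlapping libraries were Col1a2 and Col3a1, Col6a1 and Col5a1, Col5a1 and Col5a2, Col5a2 and Col12a1, and Col12a1 and Col6a2. A2ARKO chondrocytes ranked Col1a1, Col3a1, Col6a1, Col1a2, Col5a2, Col6a2, Col5a1, Col12a1, Col6a3 and Col14a1. There the overlapping neighbours were Col3a1 and Col6a1, Col6a1 and Col1a2, Col5a2 and Col6a2, and Col6a2 and Col5a1. The summed level of the 10 genes was 11599, 8569 and 8110 FPKM in the 3 WT pools, against 5886, 4179 and 4145 FPKM in the 3 A2ARKO pools. Their share of all FPKM was 3.62% ± 0.304 in WT and 1.70% ± 0.429 in A2ARKO (SD, n = 3). Col1a1 and Col1a2 alone made up 2.20% ± 0.369 and 0.788% ± 0.326. Within the summed level, Col6a1 made up 6.75%, 6.64% and 6.87% in WT and 10.7%, 15.5% and 18.2% in A2ARKO.

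Chains of 1 trimer or 1 fibril were then compared as ratios of FPKM, with a two-sided exact permutation test for each of 7 ratios and Benjamini-Hochberg adjustment over the 7. With 3 against 3 libraries the smallest p such a test can give is 0.1, so no ratio could pass. The ratio of Col1a1 to Col1a2 was 2.17, 2.63 and 2.96 in WT and 3.34, 2.73 and 2.42 in A2ARKO. These overlapped, and the log2 difference was 0.13 (exact p = 0.5, adjusted 0.7). Col5a1 over Col5a2 was 1.26, 1.43 and 1.19 in WT and 1.06, 0.789 and 0.742 in A2ARKO, so that Col5a1 exceeded Col5a2 in all WT libraries and in 1 A2ARKO library. Its log2 difference was -0.60 (exact p = 0.1, adjusted 0.35). Col6a3 over Col6a1 was 0.233, 0.241 and 0.303 in WT and 0.130, 0.139 and 0.122 in A2ARKO. This ratio did not overlap between genotypes either, at a log2 difference of -0.98 (exact p = 0.1, adjusted 0.35). Col6a1 over Col6a2 stayed within 2.35 and 2.66 in all 6 libraries, with a log2 difference of -0.02 (exact p = 0.8). The remaining ratios, of Col3a1, Col12a1 and Col14a1 to Col1a1, had overlapping groups, log2 differences of 0.59, 0.999 and 0.61 and exact p of 0.3, 0.2 and 0.8.

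**Figure D3:**
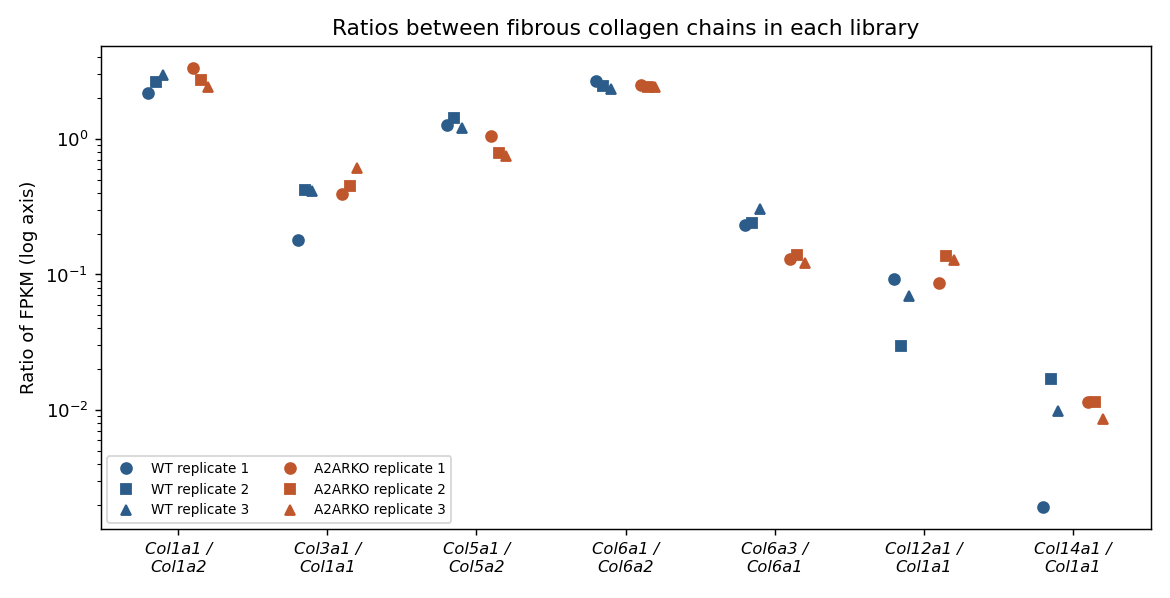
Ratios of FPKM between collagen chains in each library on a log axis, with colour for genotype and shape for replicate. Col5a1 over Col5a2 and Col6a3 over Col6a1 were lower in every A2ARKO library, while Col6a1 over Col6a2 stayed between 2.35 and 2.66.

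Promoter sequence is shown for genes on both sides of this split: Col1a2, Col3a1 and Col5a1, which were lower without overlap, and Col6a1, which was not. RefSeq (GRCm38.p6, the assembly named mm10) gave promoters for 6 of the 10 genes, Col1a2, Col3a1, Col5a1, Col6a1, Col6a2 and Col6a3. These 6 genes had 7 promoters, with more than 1 for Col6a2 only. Counts for the collagens are per gene, while the shares of all promoters are per promoter. The 250 bases before each start were searched for CCAAT or its reverse complement ATTGG, for TATAAA on the coding strand only, and for GGGCGG or its reverse complement CCGCCC. Each line gives the last 150 bases before the RefSeq start, 5′ to 3′, with any match that falls inside it in capitals. The gene positions given above are from GENCODE. For Col1a2 and Col6a1 the RefSeq start lies inside that gene, so the Col1a2 line lies within the GENCODE gene and the Col6a1 line mostly so.
Col1a2, chr6:4505468-4505617, plus strand, CCAAT: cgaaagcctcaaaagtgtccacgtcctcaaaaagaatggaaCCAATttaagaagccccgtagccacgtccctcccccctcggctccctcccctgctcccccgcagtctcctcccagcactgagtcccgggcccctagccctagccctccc
Col3a1, chr1:45311388-45311537, plus strand, TATAAA: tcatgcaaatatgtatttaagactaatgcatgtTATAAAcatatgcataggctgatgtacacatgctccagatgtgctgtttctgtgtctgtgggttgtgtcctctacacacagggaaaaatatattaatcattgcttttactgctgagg
Col5a1, chr2:27886275-27886424, plus strand, GGGCGG: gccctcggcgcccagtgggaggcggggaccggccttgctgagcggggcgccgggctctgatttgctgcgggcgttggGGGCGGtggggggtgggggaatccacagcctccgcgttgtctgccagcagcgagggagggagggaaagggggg
Col6a1, chr10:76726045-76726194, minus strand, no match: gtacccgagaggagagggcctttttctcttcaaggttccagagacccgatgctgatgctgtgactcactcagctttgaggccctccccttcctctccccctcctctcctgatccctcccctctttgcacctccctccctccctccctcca
CCAAT was found for 1 of the 6 genes, against 33.8% of all 32851 promoters, with its match in Col1a2 at -109 from the start. TATAAA was found for 1 of 6, against 7.59%, and GGGCGG for 3 of 6, against 32.7%. The 3 genes with GGGCGG were Col1a2, Col5a1 and Col6a2. Of the genes not printed, Col6a3, lower without overlap, held no match, and Col6a2, with overlapping groups, held GGGCGG. Genes with and without a match were thus found on both sides of the split. The windows differed in base composition, from 35.2% GC in Col3a1 to 76.4% in Col5a1. A match is only a run of letters in this window.

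The miR-29 family is a group of microRNAs known to act on collagen transcripts in connective tissue cells. Its mature sequences from RefSeq share 1 seed, bases 2 to 8, here in capitals.
mmu-miR-29a-3p: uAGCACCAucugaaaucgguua
mmu-miR-29b-3p: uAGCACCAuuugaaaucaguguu
mmu-miR-29c-3p: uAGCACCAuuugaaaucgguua
The reverse complement of that seed, TGGTGCT, was searched on the transcript strand in the 3′ UTR of 1 annotated transcript per gene (GENCODE release M21). It was found in 6 of the 10 genes, against 14.2% of the 10769 tested genes with an annotated 3′ UTR. The median 3′ UTR was 920.5 bases long in the 10 genes and 999 bases in all. One site per gene is printed with its flanks and the match in capitals.
Col1a1, chr11:94952529-94952550, plus strand: aggaatttcTGGTGCTatagaa
Col3a1, chr1:45348973-45348994, plus strand: atgtctcaaTGGTGCTataata
Col5a1, chr2:28038341-28038362, plus strand: gaatgtttgTGGTGCTaatctc
Col5a2, chr1:45374960-45374981, minus strand: ttttaatgaTGGTGCTaaaatt
Col6a2, chr10:76596165-76596186, minus strand: tcccatctgTGGTGCTaatagg
Col6a3, chr1:90767406-90767427, minus strand: ctgtcaataTGGTGCTaaatgt
Col5a1 had 4 such matches. Of the 6 genes lower without overlap, 5 hold a match and Col1a2 holds none. Of the 4 genes with overlapping groups, 1 holds a match, Col6a2. Over all tested genes the median log2 difference was -0.03 with a match and 0.01 without. The mature microRNAs were not analysed here, and the motif was chosen with the results known.

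The cartilage collagens gave the check of cell identity. Col2a1, the main cartilage collagen, was at 18662, 808 and 185 FPKM in WT and at 1363, 2939 and 3887 FPKM in A2ARKO. WT replicate 1 stood far above all other libraries and WT replicate 3 below them. The log2 difference was 0.83, although the mean FPKM was higher in WT, and it did not pass (limma adjusted p = 0.802). The ratio of Col1a1 to Col2a1 was 0.282, 4.54 and 18.4 in WT and 1.76, 0.455 and 0.293 in A2ARKO. By this ratio WT replicate 1 and A2ARKO replicates 2 and 3 held more Col2a1 than Col1a1, and the other 3 libraries held less. WT replicate 1 also had the highest Col1a1, at 5256 FPKM. A single ratio does not give the state of the cells, and dedifferentiation was not tested. None of the 8 cartilage collagens was called by limma or had an unadjusted p below 0.05, and their median log2 difference was 0.76. That median was 2.79 without WT replicate 1, where 2 of the 8 were called higher, 0.18 without WT replicate 2 and -0.62 without WT replicate 3. Col9a3 and Col9a1, chains of the fibril-associated collagen IX, had the smallest unadjusted p in that list and log2 differences of 1.76 and 1.02 (limma adjusted p = 0.599 and 0.764). Col9a3 ranged from 0.32 without WT replicate 3 to 3.88 without WT replicate 1, where it was called (0.0367).

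**Figure D4:**
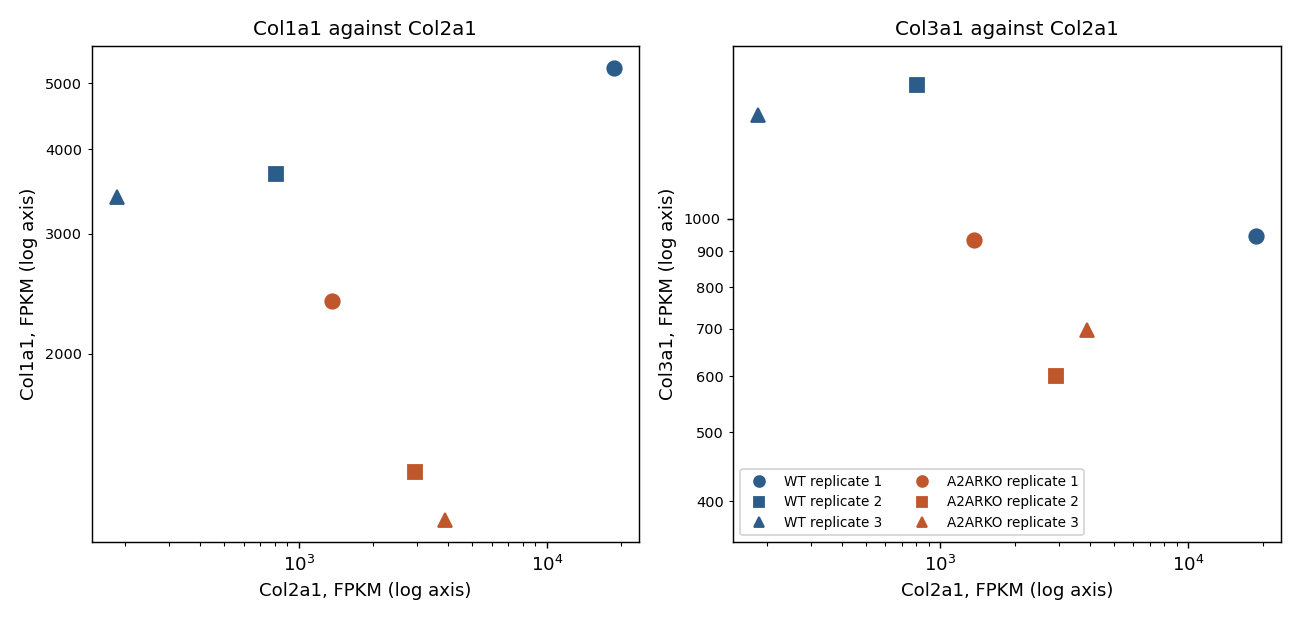
Col1a1 (left) and Col3a1 (right) against Col2a1 in the 6 libraries, in FPKM on log axes, with colour for genotype and shape for replicate. WT replicate 1, at 18662 FPKM of Col2a1, lies far from WT replicates 2 and 3, and the A2ARKO libraries lie lower in Col1a1 than every WT library.

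Markers of other cell types also differed between the libraries. The summed FPKM of 11 chondrocyte markers, Acan and Col2a1 among them, was 22781, 931 and 226 in WT and between 1638 and 4826 in A2ARKO, and 0 of 11 were called or had an unadjusted p below 0.05. Fibroblast and perichondrium markers summed to between 790 and 1267 FPKM in WT and between 1165 and 1333 FPKM in A2ARKO. Of 11 tested, 4 were called, against 5.08% of tested genes. S100a4 rose (limma adjusted p = 0.0429), and Dpt (0.0354), Cd34 (0.0457) and Twist1 (0.0457) fell. Cd34 and Twist1 were picked out after their values were seen. With 1 library left out, the limma adjusted p reached 0.175 for S100a4 and 0.144 for Dpt. Of these 11, 7 had log2 differences below 0 and 4 above. Without overlap, 4 were lower and 2 higher, against 14.9% and 18.0% of tested genes. Those 2 were the markers of this list with the highest mean level. All 6 tendon markers had log2 differences below 0 with none called (2 at an unadjusted p below 0.05), and their sum was 415 to 1251 FPKM in WT and 338 to 347 FPKM in A2ARKO. Osteoblast markers, led by Spp1 and Ibsp, summed to between 214 and 1317 FPKM in WT and between 1061 and 4076 FPKM in A2ARKO, with 0 of 5 called (1 at an unadjusted p below 0.05). Spp1 made up most of the A2ARKO sums, at 989, 2566 and 4025 FPKM. Ibsp was at 330, 12.9 and 2.01 FPKM in WT and at 2.51, 11.4 and 17.7 FPKM in A2ARKO. Of the 5 tested, 3 had log2 differences below 0 and 2 above. Leukocyte markers, led by Lyz2 and C1qb, summed to 179, 1895 and 128 FPKM in WT and to between 16.9 and 45.2 FPKM in A2ARKO. Skeletal muscle markers, led by Mylpf and Acta1, summed to 1440 FPKM in WT replicate 2 and to between 9.85 and 38.3 FPKM elsewhere. None of 9 leukocyte and 5 muscle markers was called (7 and 0 at an unadjusted p below 0.05, against 24.7% of tested genes). The tendon and leukocyte sums, like collagen I, were thus higher in every WT library than in any A2ARKO library. Of single markers, 3 of 6 tendon and 8 of 9 leukocyte genes were lower without overlap, against 14.9% of tested genes. Fmod made up most of the tendon sum in WT replicate 1, and its groups overlapped. It was at 1167, 221 and 157 FPKM in WT and at 202, 264 and 276 FPKM in A2ARKO. Endothelial markers summed to at most 5.55 FPKM and red blood cell markers to at most 0.14 FPKM in every library. Cd3e, a T cell marker, and Hbb-bt and Hba-a2, adult globins, were listed at 0 in all 6 libraries. The part of these cell types in the collagen differences was not tested. Without WT replicate 1 the log2 differences of Col1a1, Col1a2, Col3a1, Col5a1, Col5a2 and Col6a3 were -1.20, -1.21, -1.01, -0.95, -0.33 and -0.78. For the same genes without WT replicate 2, they were -1.46, -1.60, -0.65, -1.17, -0.64 and -0.99. Col6a3 was called in both fits, and the other 5 were called in neither.

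Among 26 further collagen genes, 12 were tested and 3 fell, with none rising. Col8a2, a network-forming collagen of basement membranes such as that of the cornea, was at 61.9, 61.4 and 61.2 FPKM in WT and at 16.7, 15.9 and 11.3 FPKM in A2ARKO. The WT values were almost identical, the groups lay far apart, and the log2 difference of -2.02 (limma adjusted p = 0.00408) passed in all 6 fits that leave out 1 library. Col16a1, a fibril-associated collagen, fell from 53.3 ± 6.66 to 26.8 ± 1.45 FPKM (SD, n = 3), which is -0.96 in log2 (limma adjusted p = 0.0136). The call was lost when any 1 of the 3 A2ARKO replicates was left out. Col15a1, a collagen of the basement membrane zone, also fell, with a log2 difference of -1.46 (limma adjusted p = 0.0480), and passed in 1 of the 6 fits with a library left out, that without WT replicate 3. Col15a1 was also lost with a pseudocount of 0.1 (0.0519), with no filter (0.106) and narrowly after quantile normalization (0.05002). Over all 44 collagen genes listed, 30 were tested, of which 4 fell and none rose; 5.08% of all tested genes were called in either direction.

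Genes that build or degrade collagen gave no calls. Of all tested genes, 5.08% were called and 24.7% had an unadjusted p below 0.05. None of 23 tested genes for folding and modification was called by limma (5 at an unadjusted p below 0.05), and their median log2 difference was -0.03. The smallest unadjusted p in that list belonged to Plod3, which hydroxylates and glycosylates collagen lysines, with a log2 difference of 0.52 (limma adjusted p = 0.0642), and next came P4ha2, a prolyl hydroxylase subunit, at 0.96 (0.115). None of 12 tested genes for propeptide removal and crosslinking was called (2 at an unadjusted p below 0.05). Tgm2, transglutaminase 2, was at a log2 difference of 1.20 (0.0772) and Adamts14, a procollagen N-propeptidase, at -0.34 (0.0803). Among 10 collagen-degrading enzymes none was called (5 at an unadjusted p below 0.05, of which 4 were lower). Of these 10, 8 had log2 differences below 0 and 2 above. Without overlap, 3 were lower and 1 higher, against 14.9% and 18.0% of tested genes. Ctsk, cathepsin K, and Mmp14, a membrane-bound collagenase, were at -0.80 (0.0677) and -1.10 (0.0777). Mmp13, the interstitial collagenase of cartilage and bone, went the other way and is named after its values were seen. It was at 211, 104 and 9.41 FPKM in WT and at 266, 555 and 1086 FPKM in A2ARKO, without overlap, and its log2 difference of 3.15 did not pass (limma adjusted p = 0.168).

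Of 15 fibril partners, Aspn, which encodes asporin, a proteoglycan that binds collagen, and Dpt, dermatopontin, fell. Their log2 differences were -4.25 and -2.22 (limma adjusted p = 0.00789 and 0.0354). Tnxb, a tenascin that bridges collagen fibrils, rose by 0.99 on the log2 scale (0.0496). Aspn was lost without A2ARKO replicate 2 (0.0521), while Dpt was kept in 1 fit, without WT replicate 3, and Tnxb in 1 fit, without WT replicate 1. With no filter on low values Dpt was lost (0.0825). Tnxb was lost with a pseudocount of 0.1 (0.0536), no filter (0.105), rescaling to the same sum (0.0684), quantile normalization (0.0549) and no intensity trend (0.0521). Of 11 collagen receptors, Itga11, the integrin chain that binds collagen I, was at 60.6, 32.9 and 43.7 FPKM in WT and at 14.7, 8.71 and 8.67 FPKM in A2ARKO. The groups did not overlap, and the log2 difference of -1.99 passed (limma adjusted p = 0.0216). Ddr1, a receptor tyrosine kinase activated by collagen, went the other way, from 26.2 ± 7.23 to 72.5 ± 2.02 FPKM (SD, n = 3), at 1.47 (0.0199). Itga11 lost its call without A2ARKO replicate 2 or 3, and Ddr1 when any 1 of the 3 A2ARKO replicates was left out. With no filter both were lost (0.0533 and 0.0504). The TGF-beta pathway drives collagen I transcription in many cells, and the median log2 difference over 20 genes of the pathway and its response was 0.09. That median covers shifts both ways, with 9 genes below 0 and 11 above. Of the 20, 1 was called and 7 had an unadjusted p below 0.05, against 5.08% and 24.7% of tested genes. Without overlap, 3 were lower and 4 higher, against 14.9% and 18.0%. A part of this pathway in the collagen differences was not tested.

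Col6a1 and Col6a2 lie on the chromosome of the deleted gene. Adora2a is annotated on chromosome 10, 75316877 to 75334784, plus strand. Col6a2 lies 1.26 Mb and Col6a1 1.37 Mb from Adora2a, with 85.2 kb between them. Of the 94 tested genes within 5 Mb of Adora2a, 4 were called, against 5.08% of all tested genes. Of these, 3 were higher, Gstt1, Pfkl and Agpat3, and 1 lower, Cirbp, all named after their values were seen. Their log2 differences were 1.42, 1.24, 0.72 and -0.77. The median over the 94 was 0.08.

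**Figure D5:**
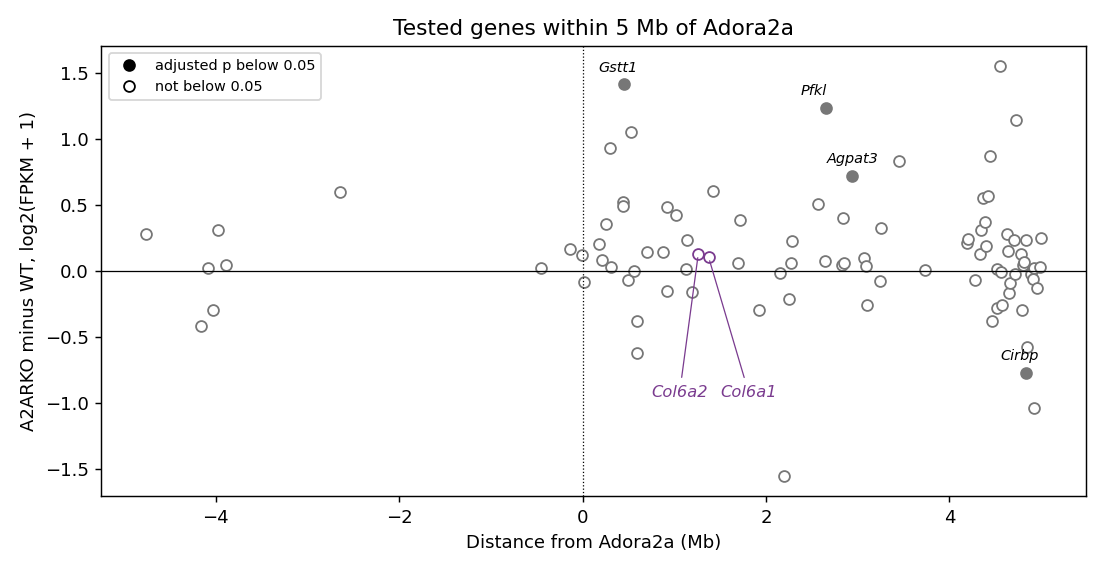
Log2 difference, A2ARKO minus WT, of the 94 tested genes within 5 Mb of Adora2a against distance from that gene in Mb, with filled points for the 4 called genes. Col6a2 and Col6a1 lie near 0, at 0.13 and 0.11, with 1.26 and 1.37 Mb to Adora2a.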

How the data were processed

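RNA sequencing of 6 libraries, 3 per genotype, was analysed from 1 table in which the authors deposited FPKM per gene. HTSeq and genome build mm10 were named per the submitters' processing notes. Aligner, annotation, gene lengths and counting by strand are not given in the sources used, and reads of overlapping genes cannot be told apart. Annotated genes overlapping the collagens were at 1.52 FPKM or less where measured, and Gm47302, which overlaps Col3a1, was not analysed here. Steps between the values of genes of at most 150 nt gave scaling totals of 41.6 to 58.1 M reads (M, mega). With exon lengths from GENCODE release M21 this gave approximate read numbers per gene, whose errors cover counting only. No 2 libraries of a genotype agreed within sampling noise. In the closest pair the median squared difference, scaled to counting error, was 20.9 times that of sampling noise.

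Genes at 1 FPKM or more in at least 3 of 6 libraries were tested with limma 3.58.1 in R 4.3.3 (eBayes with an intensity trend, two-sided, no block) on log2(FPKM + 1), with Benjamini-Hochberg adjustment over all 11595. Log2 differences and fold changes are A2ARKO minus WT on that scale, which understates low genes. The fit was tested on simulated data. Ratios were tested in SciPy 1.17.1. Same-numbered WT and A2ARKO libraries had correlations of deviations of -0.52, -0.33 and -0.39, and the labels name no shared litter or day, so numbers were not taken as pairs. Alternatives were a pseudocount of 0.1, other filters, 2 rescalings, no trend, a replicate block and each library left out.

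The collagens and the gene lists were chosen with earlier results of these data known. Named were all 10 collagens, Adora2a, from each other list up to 4 called genes with the largest log2 fold change or, with none called, the 2 with the smallest unadjusted p, and from marker lists the 2 highest genes. For each collagen, the 3 genes nearest in profile were also named. Lists are described by counts and medians, with no set test. One gene that the naming rule covers is not reported here.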

Additional observations from a re-analysis of the deposited data

How the results depend on the processing

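Of the 10 collagens, all kept direction and side of the threshold with a pseudocount of 0.1, as did 9 with no filter, with the filter at 5 FPKM, with no trend and with libraries rescaled to the same sum, and 6 after quantile normalization. Against 1 collagen called, there were 0 with no filter, 2 with the filter at 5 FPKM, 3 after quantile normalization, 2 with no trend and 0 to 1 with a library left out (0 without WT replicate 3 or any A2ARKO replicate). With no filter the calls were 1 fibril partner (from 3), 0 receptors (from 2), 0 TGF-beta genes (from 1), 2 genes near Adora2a (from 4) and 213 genes in all (from 589). The TGF-beta list had 2 calls with the filter at 5 FPKM and 2 after quantile normalization. Rescaling to the same sum gave 2 calls near Adora2a and 348 in all. The share of calls that were higher was 65.2% in the fit reported, 51.1% after that rescaling and 53.8% after quantile normalization, and the median of all genes was -0.10 and -0.04. Col6a1 was at -0.0143 after rescaling to the same sum and -0.16 after quantile normalization, and Col6a2 at -0.0511 after the latter.

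With 1 library left out, calls were 50 to 900 over all genes (900, 300 and 852 without WT replicates 1, 2 and 3, and 120, 50 and 75 without A2ARKO replicates 1, 2 and 3), 1 to 3 of the other collagens, 0 to 4 fibril partners, 0 to 3 receptors, 0 to 5 TGF-beta genes, 0 to 10 genes near Adora2a, 0 to 2 cartilage collagens, 0 to 3 folding genes, and 0 to 2 each of the propeptide and crosslinking genes and the degrading enzymes. Log2 differences that changed sign ranged from -0.93 to 0.15 for Col12a1, -0.64 to 2.69 for Col2a1, -0.69 to 2.88 for Col9a1, -1.05 to 0.39 for Fmod, -2.86 to 0.53 for Ibsp, -2.77 to 0.48 for Acta1, -3.30 to 0.27 for Mylpf, -0.32 to 3.08 for Lect1 and -0.63 to 0.0048 for Tek. They ranged from -0.0628 to 0.0250 for Col6a1 over Col6a2 and from -0.31 to 1.26 for Col14a1 over Col1a1. The causes were not tested.

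With replicate number as a block, 2 genes were called in all, and 0 of the 10 collagens, the other collagens, the fibril partners, the receptors, the TGF-beta genes and the genes near Adora2a. Col6a3 had an adjusted p of 0.159 and Adora2a of 0.121 in that fit. The numbers showed no pairing of the libraries.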

Other observations

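For each collagen the most similar genes were found by the root mean square difference between centred profiles of log2(FPKM + 1) over the 6 libraries, given in parentheses. Col1a1 was nearest to Tmem119 (0.165), Col1a2 (0.199) and Col5a1 (0.223), so 2 of its 3 nearest genes among the 11595 were other fibrillar collagens. Col1a2 was nearest to the amino acid transporter gene Slc7a5 (0.167), Hsd17b1 (0.171) and Col1a1 (0.199). Col5a1 was nearest to Ramp2 (0.0561), Pck2 and Enox1, and Col3a1 to Spry1 (0.101), Ephb3 and Matn2. Col5a2 was nearest to Pdlim2 (0.0517), Sec16b and Mrgprf.

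Col6a3 was nearest to the integrin gene Itga8 (0.0608), the Wnt receptor gene Fzd2 and Tef. Its nearest neighbour among the 10 collagens was Col5a2 (0.216), not another collagen VI chain. Col6a1 and Col6a2 were nearest to each other among the 10 (0.0548). Among all genes Col6a1 was nearest to Stard13 (0.036), Slc38a2 and Slc7a11, and Col6a2 to Bbs1 (0.0204), Cyb5d2 and Tanc2. Col12a1 had no close profile, with Snord32a (0.294), Loxl3 and Gsn as its nearest, and Col14a1 was nearest to Mdk (0.224), Vash2 and Nkain1. Profiles over 6 libraries that share 1 contrast of genotype are a description only. Adding 1 understates the differences of low genes, so a small distance need not mean a like fold change. Hsd17b1 went from 4.32 FPKM in WT replicate 1 to 0.42 FPKM in A2ARKO replicate 3, and Col1a2 from 2424 to 471 FPKM.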
